A study of Mus musculus with 12 samples.

Results

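The genes of the voltage-gated sodium channels, voltage-gated calcium channels and hyperpolarization-activated HCN channels were followed in injured spinal cord of male mice, collected 14 days after thoracic level 9 was contused. The members were chosen by symbol from the authors' full table, as every SCN, CACNA, CACNB, CACNG or HCN gene listed there. They number 34 of the 13957 symbols of the table, with 33 listed above the lesion, 28 below it and 27 at both sites. All mice carried human ApoE4 by targeted replacement of the mouse gene, were 4 months old at surgery, and carried either a pair of normal synj1 alleles (synj1+/+, labelled homozygous for synaptojanin) or 1 inactive allele (synj1+/-, labelled heterozygous). The 4 groups are synj1+/+ above, synj1+/- above, synj1+/+ below and synj1+/- below the lesion, with 3 libraries each and 12 in all, and every mouse had been injured. The study lists 3 mice per genotype for sequencing, so segments of both sites appear to come from the same mice. The labels do not say which libraries belong to 1 mouse. Uninjured mice and ApoE3 mice were not analysed here.

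Each site was compared by itself to ask whether lowering synj1, which encodes a lipid phosphatase that recycles synaptic vesicles, went with a different level of transcripts near the lesion. The table gives 1 pooled expression value per group, genotype and site, on a scale whose lowest value is 1. A difference is therefore given as the log2 of the synj1+/- value over the synj1+/+ value. It has no spread between libraries, no standard error and no test, and a ratio counted as apart when the synj1+/- value was at least 25% higher or at least 20% lower, which is the same size in both directions on the log2 scale (0.32). The libraries labelled synj1+/- were higher for SYNJ1 itself, the targeted gene, with pooled values of 1905 and 2404 above the lesion and 1847 and 2593 below it (log2 ratios of 0.34 and 0.49). This goes against the labels, so each direction below is that of the libraries labelled synj1+/- over those labelled synj1+/+.

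Voltage-gated sodium channels carry the rising phase of the action potential, and their pore-forming subunit is held at the axon initial segment and the nodes of Ranvier with the help of beta subunits. Voltage-gated calcium channels couple depolarization to transmitter release and to dendritic signals, and their pore-forming subunit is joined by beta and alpha2delta subunits that bring it to the membrane. HCN channels open on hyperpolarization and set resting potential and rhythmic firing. In the spinal cord, these families shape the firing of motor neurons and interneurons and the input from sensory fibers, and the alpha2delta subunit is the target of gabapentin.

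Below the lesion, the channel genes as a group were higher in synj1+/- cord, with a median log2 ratio of 0.30 over the 28 listed genes against 0.01 over all 12338 gene tests there. The ratio was over 1 for 26 of the 28 genes, against 52.8% of all tests. At least 25% higher were 11 genes, SCN2B, SCN3B, SCN4B, CACNA1G, CACNA1H, CACNA2D2, CACNA2D3, CACNG3, CACNG5, HCN3 and HCN4, against a background of 8.06%. At least 20% lower was 1 gene, SCN9A, against a background of 11.5%. A stricter limit of 1.5-fold left 1 gene higher (background 1.16%) and none lower (background 4.38%). With 10 added to every value 6 genes were at least 25% higher, and the share over all genes was not computed. Above the lesion, the median was 0.05 over 33 genes and 0.00 over all 13647 gene tests, and 22 of the 33 ratios were over 1, against 49.0%. None of the 33 was 25% higher there (background 4.18%) or 20% lower (background 7.45%), so none was past 1.5-fold either (backgrounds 0.791% and 1.94%). The ratios ran from a log2 of -0.17 to 0.30. In RNA from whole segments, a larger share of neurons among the cells and more RNA per neuron cannot be told apart.

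**Figure D1:**
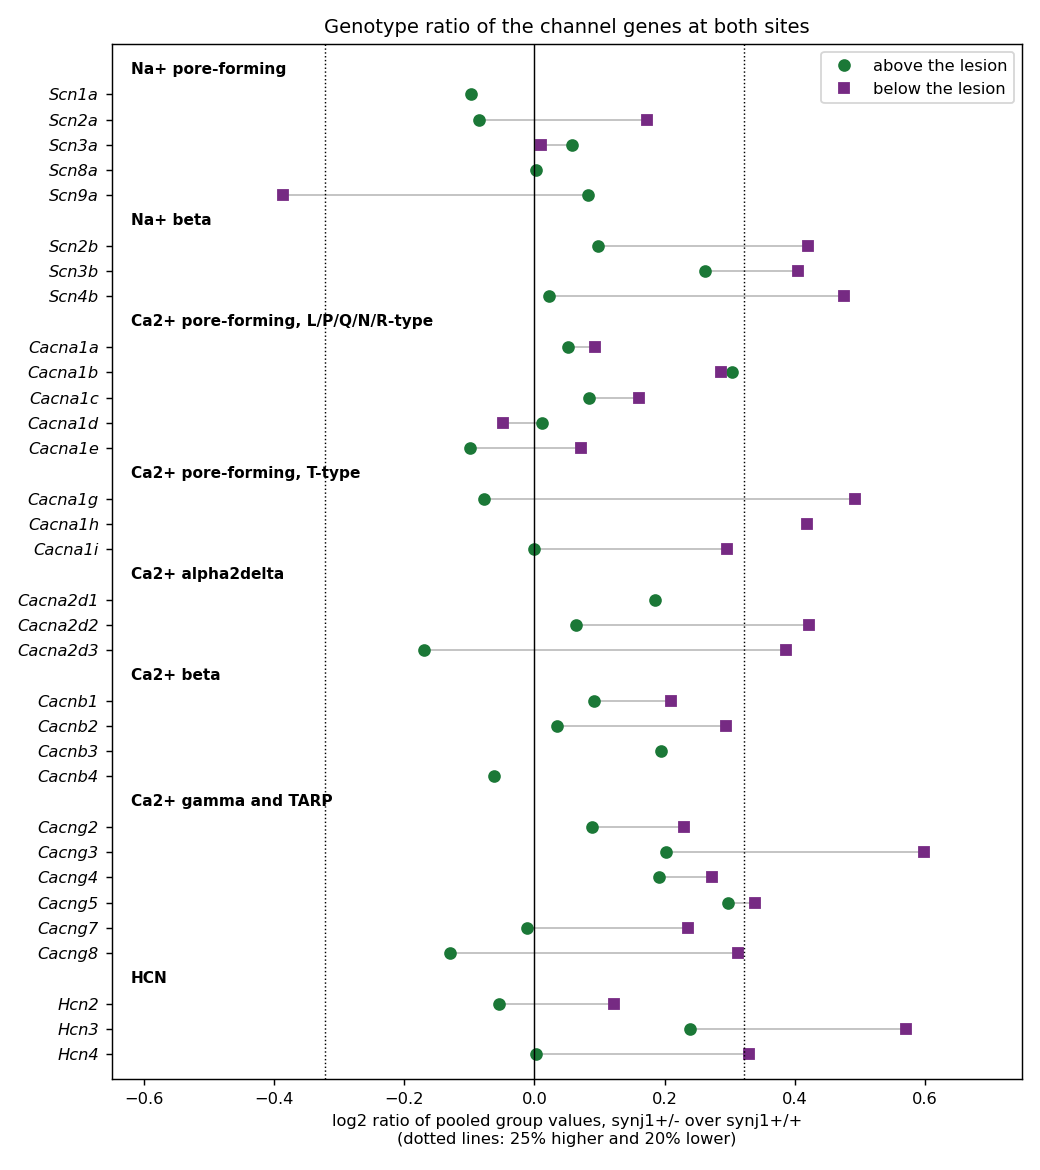
Log2 ratio of the pooled synj1+/- value over the pooled synj1+/+ value (horizontal axis) for the channel genes described in the text, ordered by subunit class. Circles are above the lesion, squares below it, a grey line joins a gene listed at both sites, and dotted lines mark 25% higher and 20% lower. All circles lie between the dotted lines, whereas 11 squares lie to the right of them and 1, SCN9A, to the left.

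**Figure D2:**
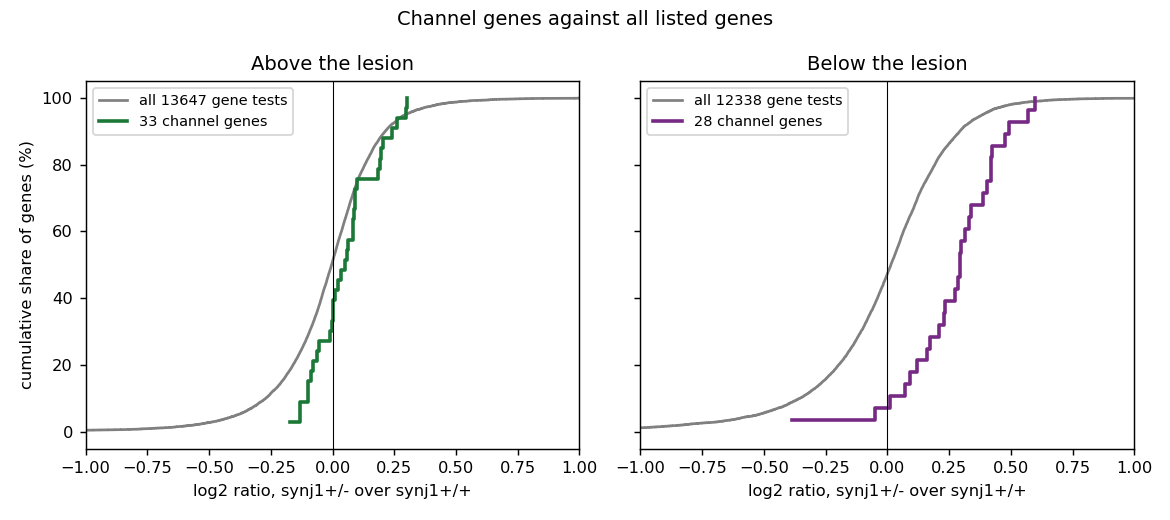
Cumulative share of genes in percent (vertical axis) against the log2 ratio of synj1+/- over synj1+/+ (horizontal axis, shown from -1 to 1), with all gene tests in grey and the channel genes in color, above the lesion on the left and below it on the right. The channel genes lie close to all genes above the lesion, with medians of 0.05 and 0.00, and to their right below it, with medians of 0.30 and 0.01.

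Of the sodium channel pore-forming genes, 5 were listed. Above the lesion all 5 ratios lay within a log2 of -0.10 to 0.08. SCN8A, the main subunit of mature nodes of Ranvier, had pooled values of 344.5 in synj1+/+ and 344.9 in synj1+/- cord above the lesion and was not listed below. SCN1A, common in inhibitory interneurons, had values of 148 and 138 above the lesion and was likewise listed there only. SCN2A, of axon initial segments and unmyelinated axons, had 48.6 and 45.8 above the lesion and 36.0 and 40.6 below it. SCN3A, which is most used in development, had 26.7 and 27.8 above the lesion and 21.7 and 21.9 below it. Both genotypes were thus nearly level for SCN8A and SCN3A. SCN9A, known from sensory and sympathetic neurons, had 11.3 and 12.0 above the lesion and 13.1 and 10.0 below it. Its log2 ratio of -0.39 below the lesion was the only one of all 28 past 20% lower, and it was -0.21 with 10 added to each value. SCN4A (skeletal muscle), SCN7A, SCN10A and SCN11A (the latter pair of sensory neurons) were listed at neither site.

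The beta subunits modulate the gating of the pore and act as adhesion molecules. All 3 listed below the lesion were at least 25% higher in synj1+/- cord (background 8.06%), with a median log2 ratio of 0.42. SCN4B, which supports resurgent sodium current, had pooled values of 63.6 and 64.6 above the lesion and 75.9 and 105 below it (log2 ratios of 0.02 and 0.48). Its pooled values were thus nearly level between genotypes above the lesion and apart below it. SCN2B, a covalently linked beta subunit, had 56.4 and 60.4 above the lesion and 40.8 and 54.7 below it (0.10 and 0.42). SCN3B had 43.2 and 51.7 above the lesion and 29.5 and 39.0 below it, with log2 ratios of 0.26 and 0.40. With 10 added to each value, the log2 ratio of SCN3B below the lesion was 0.31, just under the limit. SCN2B (0.35) and SCN4B (0.43) stayed past it.

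SCN2B and SCN4B are neighbors on chromosome 9 of GRCm38.p6, at 45117876 to 45130070 and 45138624 to 45154155 in the RefSeq annotation, 8.55 kb apart. HCN4, a pacemaker channel subunit, lies on the same chromosome, as do SCN3B and CACNA2D2. The 250 bases before the annotated starts of SCN2B, SCN4B and HCN4 are shown as examples. They are among the genes at least 25% higher in synj1+/- cord below the lesion, as are SCN3B and CACNA2D2. The windows shown were not chosen by any shared feature of sequence. These windows come from RefSeq on GRCm38.p6 and are written 5′ to 3′ on the gene's strand, with capitals for the GC box GGGCGG or its reverse complement.
SCN2B chr9:45117626-45117875 (+): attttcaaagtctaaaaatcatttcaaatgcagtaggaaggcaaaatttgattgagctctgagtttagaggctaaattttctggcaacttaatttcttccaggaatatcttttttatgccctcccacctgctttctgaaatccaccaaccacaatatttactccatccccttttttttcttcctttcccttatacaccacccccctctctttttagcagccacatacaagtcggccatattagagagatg
SCN4B chr9:45138374-45138623 (+): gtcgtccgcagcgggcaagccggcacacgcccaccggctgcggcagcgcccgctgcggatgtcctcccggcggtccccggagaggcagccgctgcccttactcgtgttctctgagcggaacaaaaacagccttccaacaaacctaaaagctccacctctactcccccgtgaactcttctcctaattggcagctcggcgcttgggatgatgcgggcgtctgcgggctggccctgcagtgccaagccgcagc
HCN4 chr9:58822699-58822948 (+): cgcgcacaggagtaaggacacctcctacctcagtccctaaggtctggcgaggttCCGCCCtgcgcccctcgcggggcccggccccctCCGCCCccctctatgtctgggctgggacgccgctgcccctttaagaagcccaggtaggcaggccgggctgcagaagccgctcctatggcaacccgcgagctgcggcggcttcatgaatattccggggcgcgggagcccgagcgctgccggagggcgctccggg
HCN4 held 2 GC boxes in this window and SCN2B and SCN4B none. Windows were found for 25 of the 34 members, and 14 of their 36 windows (38.9%) held a GC box, against 32.7% of 32851 windows of all genes. Among genes at least 25% higher below the lesion it was 4 of 8 windows, of 7 genes. On both strands, TGACGTCA was in 0 of the 36 windows (1.55% of all), CACGTG in 0 (6.02%), CAGCACC in 0 (5.73%), GGACAGC in 1 (5.28%) and TATAAA in 2 (12.4%). These matches describe the letters of the windows and no binding.

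Of the 7 high-voltage-activated calcium channel pore genes, 5 were listed at both sites and none was 25% higher or 20% lower at either. CACNA1B, the N-type pore of presynaptic terminals and the target of ziconotide, came closest. Its pooled values were 191 and 235 above the lesion and 169 and 206 below it, with log2 ratios of 0.30 and 0.29, so its genotype ratio was nearly the same at both sites. CACNA1A, the P/Q-type pore, had 525 and 545 above the lesion and 468 and 499 below it. CACNA1C, the L-type pore also found in vascular smooth muscle, had 398 and 422 above the lesion and 331 and 370.1 below it. Both were slightly higher in synj1+/- cord at both sites. CACNA1D, the L-type pore tied to persistent inward currents of motor neurons, had 184 and 186 above the lesion and 196 and 189 below it. CACNA1E, the R-type pore, had 192 and 179 above the lesion and 141 and 148 below it. Of these genes, CACNA1D had a ratio under 1 below the lesion and CACNA1E above it, and both differences were small (log2 ratios of -0.05 and -0.10). CACNA1F, known from retina, and CACNA1S, from skeletal muscle, were listed at neither site.

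T-type calcium channels open near resting potential and give rise to burst firing. All 3 of their genes were higher in synj1+/- cord below the lesion, 2 of them by at least 25% (background 8.06%). Above the lesion, CACNA1G was slightly lower and CACNA1I nearly level. CACNA1G had pooled values of 1026 and 973 above the lesion and 519.8 and 731 below it, with log2 ratios of -0.08 and 0.49. The lowest of the 4 groups was synj1+/+ below the lesion (log2 of below over above, -0.98 in synj1+/+ and -0.41 in synj1+/-). CACNA1H was listed below the lesion only, with values of 43.99 and 58.83 (log2 ratio 0.42). CACNA1I had 21.70 and 21.68 above the lesion and 17.3 and 21.3 below it, or 1.23-fold.

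The alpha2delta subunits are extracellular proteins that set how many channels reach the terminal. CACNA2D2 had pooled values of 207 and 216 above the lesion and 176 and 235 below it, with log2 ratios of 0.06 and 0.42. CACNA2D3 had 36.8 and 32.7 above the lesion and 36.0 and 47.0 below it, so that its log2 ratio was -0.17 above the lesion and 0.39 below it. CACNA2D1, the gabapentin-binding subunit raised in models of neuropathic pain, was listed above the lesion only, with 135 and 153 (log2 ratio 0.19). CACNA2D4 was listed at neither site. Thus both alpha2delta genes with a value below the lesion were at least 25% higher there (background 8.06%). With 10 added to each value, the log2 ratio there was 0.40 for CACNA2D2 and 0.31, just under the limit, for CACNA2D3.

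The intracellular beta subunits release the pore from retention in the endoplasmic reticulum. None of the 4 was 25% higher. CACNB1 had pooled values of 168 and 179 above the lesion and 153 and 177 below it, and CACNB2 had 131 and 134 above and 121 and 149 below. CACNB2 was 1.23-fold higher below the lesion, just short of the set size. CACNB3, with 311 and 356, and CACNB4, with 195 and 187, were listed above the lesion only.

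The CACNG genes encode the gamma subunit of muscle calcium channels and the TARPs, which in neurons carry AMPA receptors to the synapse and tune their gating. All 6 listed genes were higher in synj1+/- cord below the lesion, 2 by at least 25% (background 8.06%). The median log2 ratio of the 6 was 0.29 there, against 0.14 above the lesion. CACNG3 had pooled values of 10.4 and 12.0 above the lesion and 6.96 and 10.5 below it. Its log2 ratio of 0.60 below the lesion was the highest of all 28 members there, and the only one to reach 1.5-fold. Its values are small on the deposited scale, and with 10 added to each value that log2 ratio was 0.28, under the 25% limit and under the 0.48 of CACNA1G. CACNG5 had 12.5 and 15.4 above the lesion and 12.6 and 15.9 below it, a nearly equal ratio at both sites (0.30 and 0.34). With 10 added to each value, the log2 ratio of CACNG5 below the lesion was 0.20, under the limit. CACNG2, or stargazin, had 61.6 and 65.5 above the lesion and 72.0 and 84.4 below it. CACNG4 had 20.6 and 23.6 above and 16.8 and 20.3 below, CACNG7 had 409 and 406 above and 369 and 434 below, and CACNG8 had 18.1 and 16.6 above and 13.8 and 17.2 below. CACNG7 and CACNG8 thus had ratios under 1 above the lesion and over 1 below it. CACNG1, of skeletal muscle, and CACNG6 were listed at neither site.

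HCN2, HCN3 and HCN4 were listed at both sites, and all were higher in synj1+/- cord below the lesion. HCN2, a widespread subunit that responds to cyclic AMP, had pooled values of 159.9 and 154 above the lesion and 156 and 169 below it, and stayed short of 25% at both. HCN3 had 18.8 and 22.2 above the lesion and 13.9 and 20.7 below it, a log2 ratio of 0.57 below that was next to that of CACNG3. It was higher in synj1+/- cord at both sites. HCN4 had 4.46 and 4.47 above the lesion and 3.53 and 4.44 below it. HCN4 was nearly level between genotypes above the lesion. Its values are small on the deposited scale, and with 10 added to each value its log2 ratio below the lesion was 0.09 in place of 0.33.

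**Figure D3:**
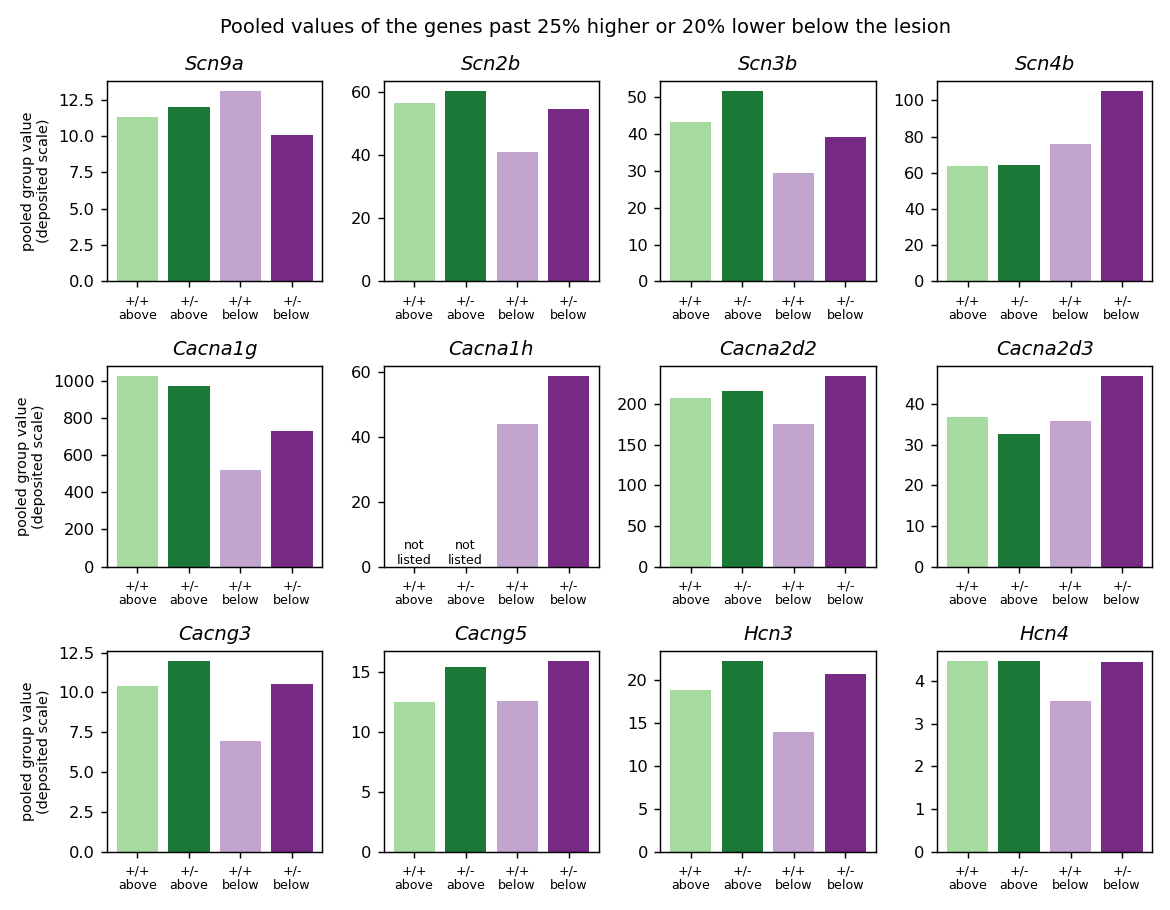
Pooled group value on the deposited scale (vertical axis, starting at 0 and different for each gene) in the 4 groups (horizontal axis) for the 11 genes at least 25% higher and the 1 at least 20% lower below the lesion, each bar being 1 pooled value of 3 libraries without an error. CACNA1H was not listed above the lesion. CACNA1G is highest above the lesion in both genotypes, at 1026 and 973, and SCN4B is highest in synj1+/- cord below it, at 105.

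The genotype ratios of the 27 genes with values at each site were then set against each other. The log2 ratio was higher below the lesion than above it for 23 of the 27, against 53.9% of 12025 symbols, with a median difference of 0.25 against 0.02. The ratio below exceeded that above by at least 25% for 10 genes against a background of 10.0%. They included SCN2B, SCN4B, CACNA1G, CACNA2D2, CACNA2D3, CACNG3, CACNG8, HCN3 and HCN4, with differences from 0.32 to 0.57. The count was 4 with 10 added to each value, 0 at 1.5-fold and 2 with the median of the neuron markers subtracted at each site, where 16 of the 27 ratios were higher below the lesion. Shares over all genes were not computed under these alternatives. SCN9A was the 1 gene with the opposite difference of that size, at -0.47, against a background of 10.0%. The other genes with a lower ratio below the lesion were SCN3A, CACNA1B and CACNA1D, all by less than 0.1. No member was 25% higher at both sites (background 1.01%) or 20% lower at both (background 3.19%). These differences have no test, since the table holds no spread between libraries.

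The levels at the sites were compared within a genotype, although the reads of each site had been reduced to a different number and the sites may have been normalized separately. In synj1+/+ cord the median log2 of the value below over the value above was -0.27 for the 27 channel genes and 0.00 for all genes. At least 20% lower below were 10 members (background 7.79%): SCN2A, SCN2B, SCN3B, CACNA1E, CACNA1G, CACNA1I, CACNG3, CACNG8, HCN3 and HCN4. In synj1+/- cord the median was -0.03, against 0.02 for all genes, and 3 members were at least 20% lower below (background 4.53%), SCN3A, SCN3B and CACNA1G. In the same cord 3 were at least 25% higher below (background 6.50%), SCN4B, CACNA2D3 and CACNG2, while none was in synj1+/+ cord (background 10.2%). The synj1+/+ value below the lesion enters both this comparison and the genotype ratio there, so the 2 are not separate observations.

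Genes whose proteins work with these channels were described in the same way, as 30 genes of 4 lists. Below the lesion 24 were listed, with a median log2 ratio of 0.23, 5 at least 25% higher (background 8.06%) and 1 at least 20% lower (background 11.5%). FGF13, which binds the tail of sodium channels, had pooled values of 243 and 289.5 above the lesion and 169 and 264 below it, a log2 ratio of 0.64 below. FGF14, of the same family, had 29.9 and 38.0 below the lesion. UNC80, a part of the NALCN sodium leak channel, had 548 and 474 above the lesion and 437 and 554 below it (log2 ratios of -0.21 and 0.34). All 3 belong to sodium currents, and the next 2 lie at the synapse. TSPOAP1, which ties calcium channels to the active zone, had 461 and 585 below the lesion, and ELFN1, a synaptic adhesion protein, had 82.5 and 114. RRAD, a small GTPase that inhibits calcium channels, was the lower one, with 7.21 and 5.003. Above the lesion 28 were listed, with a median of 0.03, none 25% higher (background 4.18%). The 3 at least 20% lower were NRCAM, RRAD and CACHD1, a share near the background of 7.45%. The anchors and adhesion proteins of initial segments and nodes differed among themselves below the lesion, with log2 ratios of 0.30 for SPTBN4, 0.31 for CNTNAP1, -0.03 for NFASC and -0.21 for NRCAM.

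Markers of the cell types in the segment were read beside the channel genes. Of 10 neuron markers, 7 were listed below the lesion and all 7 were higher in synj1+/- cord. At least 25% higher were 2, SNAP25 and SYT1, against a background of 8.06%. Their log2 ratios ran from 0.11 to 0.54 with a median of 0.19, and their summed value was 8453 in synj1+/+ and 10622 in synj1+/- cord. Of the 28 channel genes, 21 lay within that range, 2 above it (CACNG3 and HCN3) and 5 under it. With the neuron median subtracted, an alternative chosen after seeing the data, the channel median below the lesion was 0.11. The ratio was then over 1 for 20 of 28 genes, and 2 were at least 25% higher, CACNG3 and HCN3. The share over all genes was not computed with that median subtracted. Above the lesion 8 neuron markers were listed, 4 of them higher and 4 lower, with a median of 0.03 and summed values of 9795 and 11067. SNAP25 alone made up most of the neuron sum at each site, at 5239 and 6248 above the lesion and 5272 and 6929 below it. All 4 motor neuron markers listed below the lesion were also higher, with log2 ratios from 0.18 to 0.25 and summed values of 106 and 123, and 2 of 5 were higher above it, with sums of 140.3 and 128.

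Markers of several other cell types were lower in the same samples. Over all gene tests, 11.5% below the lesion and 7.45% above it were at least 20% lower. At least 25% higher were 8.06% below the lesion and 4.18% above it. All 5 fibroblast markers were at least 20% lower in synj1+/- cord at both sites, with summed values of 354 and 48.5 below the lesion and 32.0 and 21.3 above it. Of the microglia and macrophage markers, 4 of 6 were lower by that size below the lesion (sums of 1292 and 869) and 4 of 8 above it (sums of 1125 and 837). Of 7 astrocyte markers, 2 were lower by that size below the lesion (sums of 16161 and 12668) and none above it (18014 and 14910). GFAP made up most of each of these astrocyte sums. All 4 listed pericyte and smooth muscle markers were lower below the lesion, 3 of them by at least 20%. Above the lesion 3 of the 4 were higher, 1 of them by at least 25%. The 4 red blood cell genes were higher at both sites, all 4 by at least 25% above the lesion (sums of 250.2 and 1126) and 2 of them below it (629 and 822). Endothelial markers reached that size for 1 of 4 below the lesion, as lower, and for none above it. The 4 oligodendrocyte precursor markers and both listed oligodendrocyte markers stayed short of the set size at both sites, as did the 1 listed ependymal marker. The part of these shifts in the channel values was not tested.

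Marker genes also bear on the members that were not listed. Of 5 skeletal muscle markers, none was listed above the lesion and 1 below it, ACTA1 at 3.53 and 2.93, beside the unlisted muscle genes SCN4A, CACNA1S and CACNG1. Among sensory neuron markers, TRPV1 was not listed, CALCA was higher in synj1+/- cord at both sites (80.4 and 104 below the lesion) and ADCYAP1 was lower below it (229 and 171). PRPH was nearly level at 220.1 and 219 there. Of the Schwann cell markers, PMP22 was listed at both sites and was short of the set size at both. No listed marker or channel gene was at the lowest value of the table.

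**Figure D4:**
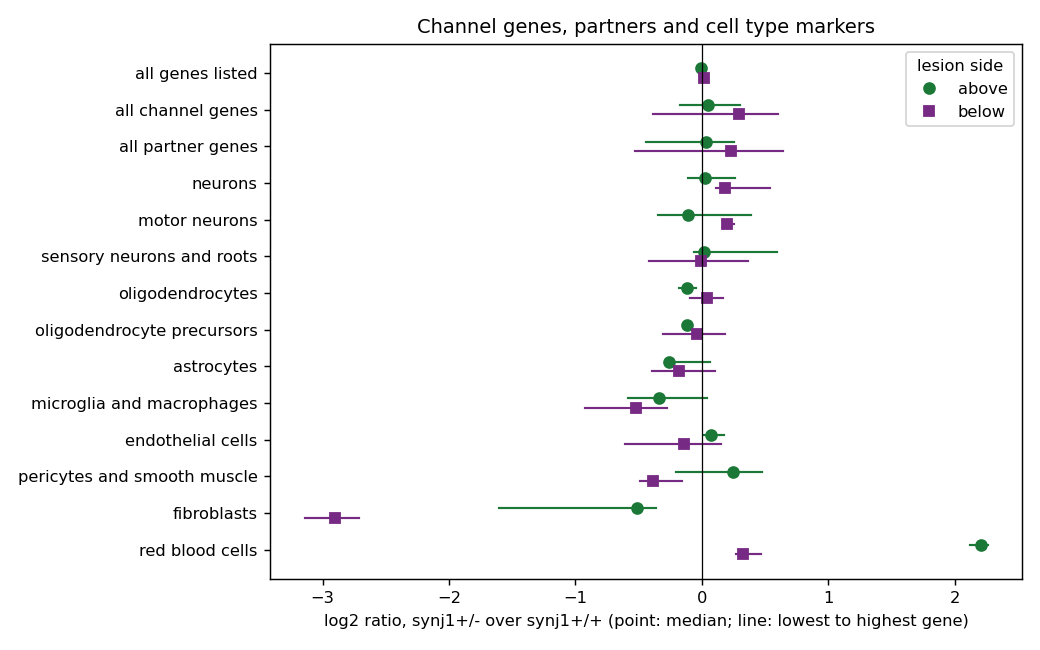
Median log2 ratio of synj1+/- over synj1+/+ (points) and the range from the lowest to the highest gene (lines; not drawn for all genes listed) on the horizontal axis, for the channel genes, their partners and cell type markers with at least 2 genes listed at each site. Circles are above the lesion and squares below it. The channel genes and the neuron markers have positive medians below the lesion, 0.30 and 0.19, where the fibroblast markers have a median of -2.91.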

How the data were processed

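Total RNA from cord segments just above and below the lesion was sequenced in 12 libraries. Per the labels and the study's methods, reads were aligned with STAR 2.5.4b to GRCm38.p6 and summarized with Cuffdiff 1.3.0, after reads of each site had been reduced at random to those of its smallest library, with upper quartile normalization. The gene annotation is not given in the sources used here.

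The authors' deposited table gives, per gene and site, a score that pools the 3 libraries of a group. It was not called FPKM, because it is never under 1 (added, or a floor) and followed the number of annotated transcripts across genes (Spearman's rho 0.50 over 13449 symbols above the lesion and 0.48 over 12168 below), so members were not ranked by level. Columns of single samples number 0, so no depth per library, spread or test was available. Its fold changes, log2 fold changes, p-values and q-values, and a shorter list with only those, were not used.

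From the pooled values, log2 ratios, counts of ratios past the set size and medians were computed beside all listed genes, with Python 3.11.15, numpy 2.4.6 and pandas 2.3.3. The calculation was tested on simulated data. A few genes and 1 sequence are not reported here, though counts and medians include all listed genes. The members and lists were chosen with earlier results of these data known. RefSeq gave positions and promoter windows.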

Additional observations from a re-analysis of the deposited data

How the results depend on the processing

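The counts depended on the size set and on low values. Shares over all genes were not computed for altered values, nor at 1.5-fold between the sites. With 1.5-fold as the limit, 1 channel gene was higher below the lesion in place of 11, 0 were lower in place of 1, 1 subunit class in place of 6 had a gene of that size, and 0 genes in place of 10 had a ratio that much higher below than above. With 10 added to each value these counts were 6 higher and 0 lower below the lesion, and 4 higher below than above. Without genes under the 25th percentile of their site, 0 were lower below the lesion and the HCN median above it was 0.093. Centred on the neuron markers, chosen after seeing the data, 2 genes were higher below the lesion, their median was 0.11, 2 genes had a higher ratio below than above, and the median difference between the sites was 0.087. Subtracting 1, centring on all genes and keeping genes listed at both sites moved no count by over 1.5 times and no median by over 0.1. Changing the limit, adding 10, subtracting 1 and leaving out genes keep the sign of a ratio. The centrings shifted ratios by less than the set size. The direction of a gene past the set size therefore could not turn under any alternative, so its direction was not tested by them. The counts of ratios over 1 stayed within 1.5 times of 26 of 28 below the lesion under each alternative run. Centring on the neuron markers lowered that count to 20 of 28.

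No paired analysis was possible because the table holds 1 pooled value per group, and for the same reason leaving out each library was not run. Precision is limited by the 3 libraries of a group, whose spread is unknown.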
